A study of Rattus norvegicus with 6 samples.

Results

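The genes described here are 10 immediate early genes outside the AP-1 family, namely Egr1, Egr2, Nr4a1, Nr4a3, Ier2, Ier3, Ier5, Myc, Klf4 and Klf6. They were chosen by name, with earlier results of these data known, and all 10 were found among the 26126 gene entries of the deposited count table. RNA sequencing was carried out in 6 libraries of H9c2, an established cell line of embryonic rat heart origin. Cells of 3 libraries labelled adPERK had received an adenovirus for PERK overexpression, and cells of 3 control libraries a control adenovirus. All 6 went through simulated ischemia-reperfusion, for which the cells were held in an acidic buffer with 2-deoxyglucose, an inhibitor of glycolysis, and lactate, under a gas mixture of nitrogen and carbon dioxide. The growth medium contained high glucose and fetal bovine serum in all groups. The virus dose, the promoter of the transgene and the length of the reperfusion are not stated in the labels. The labels do not state whether the 3 replicates of a group were grown as separate cultures; if they were not, the p-values measure technical spread. The comparison asks how the early genes differ after simulated ischemia-reperfusion when PERK is overexpressed.

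Immediate early genes are switched on within minutes of a stimulus such as serum, growth factors, calcium entry or stress, without the need for new protein, and their mRNAs are short-lived. Signals through ERK reach serum response factor, which binds CArG boxes, and signals through calcium and cyclic AMP reach CREB, which binds cyclic AMP response elements (CREs). EGR proteins are zinc-finger transcription factors, NR4A proteins are orphan nuclear receptors, IER proteins are small regulators of stress and survival signalling, MYC drives growth and ribosome production, and KLF proteins are zinc-finger factors that bind GC-rich sites. PERK, encoded by Eif2ak3, is a kinase of the endoplasmic reticulum that phosphorylates eIF2 alpha, lowers general translation and raises ATF4.

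Total counts ranged from 89798433 to 119087414 in adPERK libraries and from 77923398 to 111052659 in control libraries. Small counts clustered in steps of about 6 (period 5.75 to 6 in the 6 libraries), so a count may stand for fewer independent fragments than it shows. Control replicate 3 stood apart, with 19287 entries above 0 against 15377 to 16685 in the other 5 libraries. Eif2ak3 was at 26.5, 26.5 and 26.0 CPM (counts scaled to a common library total) in adPERK libraries and at 26.5, 26.9 and 24.0 CPM in control libraries (log2 fold change 0.03, SE 0.06, edgeR adjusted p = 0.887). The level of the targeted gene therefore gives no check on which libraries overexpressed PERK, and directions rest on the sample labels; a transgene that the rat entry does not capture was not tested. Of 14 myoblast and striated muscle markers 12 passed the low-count filter, and their summed level was 2032 to 2096 CPM in adPERK and 1979 to 2083 CPM in control libraries. Of these 12 markers Myog, the myogenic factor myogenin, fell, at 389.7, 407.9 and 401.4 CPM in adPERK and 474.4, 490.7 and 493.1 CPM in control libraries (log2 fold change -0.28, SE 0.03, edgeR adjusted p = 0.0137). With 1 library left out the list had 0 calls, except 1 call when control replicate 1 was left out. The other 11 did not pass the edgeR test, with log2 fold changes of 0.15 for Tnnc1 and 0.43 for Mef2c. Of 7 endothelial markers only Tek passed the low-count filter (0.638 to 0.878 CPM in adPERK and 1.29 to 1.56 CPM in control libraries). Its difference did not pass the test (edgeR adjusted p = 0.225). Cdh5 was at 0 in all libraries but control replicate 3. Of 9 leukocyte markers 3 passed the filter, summing to 9.98 to 11.04 CPM in adPERK and 8.25 to 12.1 CPM in control libraries, and Lyz2 was at 0 in all 6. Cd14, the highest leukocyte marker, was at 8.86 to 9.80 CPM in adPERK and 7.19 to 10.8 CPM in control libraries. Csf1r was at 0.860 to 0.931 CPM in adPERK and 0.524 to 1.07 CPM in control libraries. Of 7 epithelial markers 3 passed the filter, summing to 53.1 to 54.3 CPM in adPERK and 48.6 to 52.8 CPM in control libraries, with Krt19 at 0 in all 6. Krt8, the highest epithelial marker, was at 40.9 to 41.6 CPM in adPERK and 38.9 to 40.0 CPM in control libraries (edgeR adjusted p = 0.510). Krt7 was at 11.9 to 12.6 CPM in adPERK and 9.72 to 13.4 CPM in control libraries. The part of these marker levels in the results was not tested.

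The sequences before the start sites of early genes are shown because they hold the sites through which these genes are known to be induced. RefSeq sequences (rat assembly GRCr8) were found for 7 of the 10 genes, and the 250 bases before the listed start are printed for the 4 with a CRE half-site, in lower case and 5′ to 3′ on the strand of the gene. Capitals mark CArG boxes and CRE half-sites (TGACG on either strand).
Egr1, chr18:26736828-26737077, plus strand: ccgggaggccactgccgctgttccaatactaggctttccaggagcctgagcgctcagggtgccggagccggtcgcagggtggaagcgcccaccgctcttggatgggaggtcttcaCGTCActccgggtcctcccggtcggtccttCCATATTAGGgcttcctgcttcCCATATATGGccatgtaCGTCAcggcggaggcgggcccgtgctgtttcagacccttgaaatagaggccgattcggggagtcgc
Egr2, chr20:21054442-21054691, minus strand: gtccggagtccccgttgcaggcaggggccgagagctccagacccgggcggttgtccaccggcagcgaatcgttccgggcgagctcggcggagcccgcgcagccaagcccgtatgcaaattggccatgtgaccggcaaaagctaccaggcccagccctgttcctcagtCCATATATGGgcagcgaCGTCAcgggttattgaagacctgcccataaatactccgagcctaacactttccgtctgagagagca
Ier2, chr19:40399123-40399372, plus strand: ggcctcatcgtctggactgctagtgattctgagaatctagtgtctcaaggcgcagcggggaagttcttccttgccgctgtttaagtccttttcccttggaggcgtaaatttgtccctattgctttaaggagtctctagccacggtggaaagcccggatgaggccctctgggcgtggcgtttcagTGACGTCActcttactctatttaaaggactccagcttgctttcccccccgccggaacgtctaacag
Nr4a1, chr7:134259888-134260137, plus strand: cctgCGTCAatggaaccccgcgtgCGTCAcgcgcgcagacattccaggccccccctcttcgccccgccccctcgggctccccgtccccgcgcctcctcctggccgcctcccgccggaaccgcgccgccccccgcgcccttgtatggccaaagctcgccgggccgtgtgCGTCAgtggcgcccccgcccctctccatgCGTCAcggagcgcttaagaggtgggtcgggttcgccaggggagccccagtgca
Base -1 is the base just before the start. Egr1 held 2 CArG boxes, CCATATTAGG from -105 to -96 and CCATATATGG from -83 to -74, beside half-sites at -135 to -131 and -66 to -62. Egr2 held the same CArG sequence CCATATATGG at the same distance, -83 to -74, and a half-site likewise at -66 to -62. Ier2 held the full palindromic CRE, TGACGTCA, at -66 to -59, in which both of its half-sites lie. Nr4a1 held 4 half-sites, between -246 and -49, no CArG box, and an EGR site (GCGNGGGCG on either strand) at -73 to -65. Klf6, not printed, had a CArG box at -201 to -192 and an E-box (CACGTG), the site of MYC and its partner MAX, at -56 to -51. In these windows no match to any of the motifs searched was found for Ier5 or Klf4. The windows of Egr2, Nr4a1 and Klf4 lie inside the span of their own RefSeq records, which list further starts. These windows may therefore hold transcribed sequence, and another promoter may serve these genes instead or as well. The lack of a match in the Klf4 window does not show that its promoter lacks these sites.

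A CArG box was present in 3 of 7 member windows and in 1.50% of 33469 rat gene windows of the same length. The CRE half-site was present in 4 of 7 and in 18.2% of all, the full CRE in 1 of 7 and in 1.59%, and the EGR site in 1 of 7 and in 4.29%. An E-box was present in 1 of 7 and in 5.59% of all windows. The NBRE (AAAGGTCA), which NR4A receptors bind, was in 0 of 7 and in 1.24% of all, and the composite site of ATF4 (TGATGNAA) in 0 of 7 and in 3.40%. A match is a stretch of letters and not a measured binding site.

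In the libraries labelled adPERK, Egr1 and Klf4 were higher, by 1.46-fold and 1.45-fold. The other 8 genes did not pass the test over all 14488 entries. All 10 genes passed the low-count filter, and each was above its limit of 0.105 CPM in all 6 libraries. The 2 that passed are 20% of the members, both higher, while 0.421% of all tested entries passed in either direction and 0.311% passed as higher. Because the genes were chosen with earlier results of these data known, this share and those that follow are not independent of the choice. The median log2 fold change was 0.44 for the 10 genes and -0.0045 for all tested entries. All 10 fold changes lay above 0, as did 48.7% of all tested entries. An unadjusted p under 0.05 with a higher level was found for 4 of the 10 and for 5.94% of all tested entries. The groups did not overlap, with adPERK higher, for 4 of the 10 genes (Egr1, Klf4, Ier2 and Nr4a3), against 9.66% of all tested entries. In bulk RNA, more cells expressing a gene and more RNA per cell cannot be told apart.

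**Figure D1:**
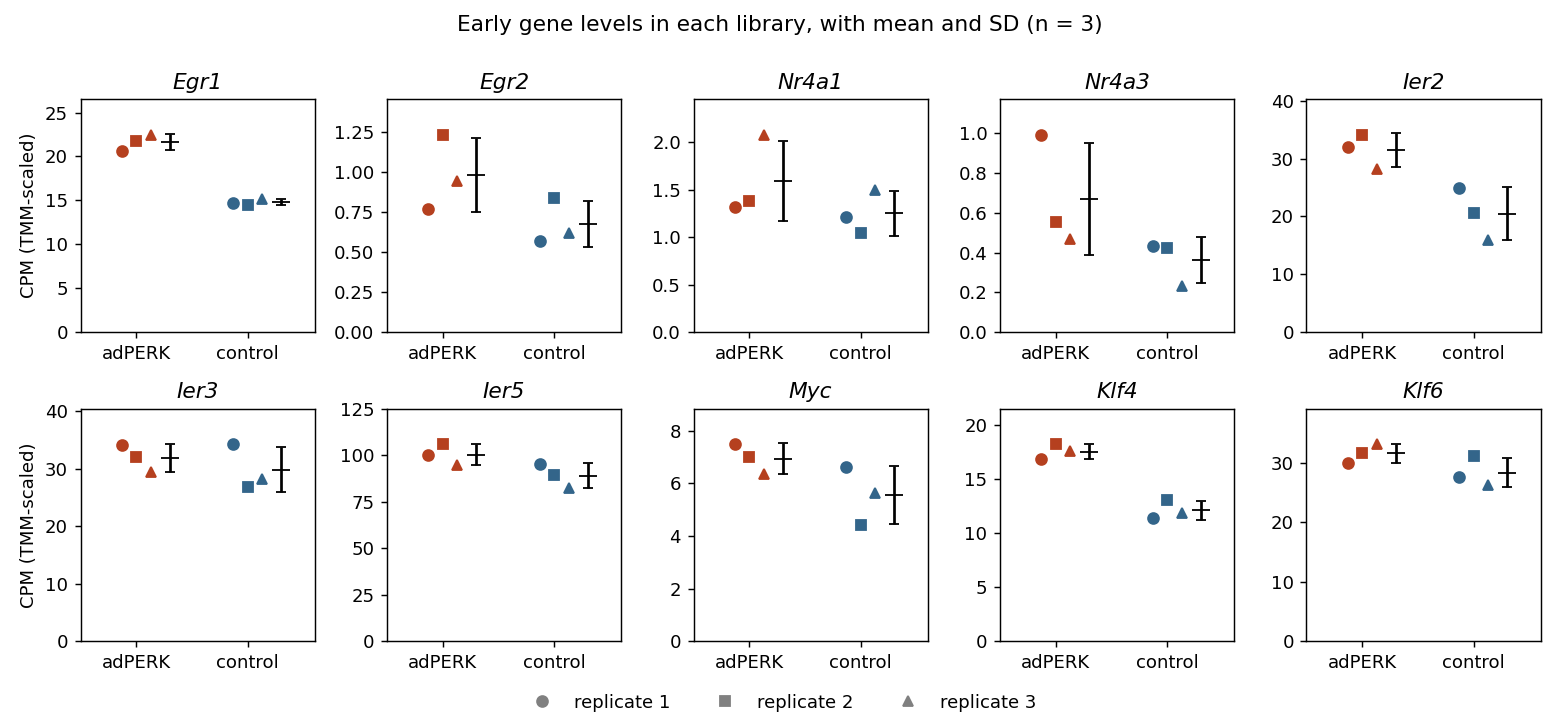
Level of each of the 10 genes in CPM (TMM-scaled; y axis from 0) in the 3 adPERK and the 3 control libraries. Points are libraries, with shapes for replicate numbers, and bars are the mean and SD of 3. For Egr1, Klf4, Ier2 and Nr4a3 every adPERK point lies above every control point.

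Egr1, a zinc-finger factor that turns growth and stress signals into gene expression, was at 20.6, 21.8 and 22.4 CPM in adPERK libraries and at 14.7, 14.5 and 15.2 CPM in control libraries. The lowest adPERK library was 1.36-fold above the highest control library. The means were 21.6 ± 0.915 and 14.8 ± 0.36 CPM (SD, n = 3 each), and the log2 fold change was 0.55 (SE 0.06, 95% interval 0.40 to 0.70, edgeR adjusted p = 0.0163). Egr1 ranked 23rd of all tested entries by p, and 96.5% of entries had a lower log2 fold change. Its spread within groups was small, with an SD of 0.05 on the log2 scale, against a median of 0.12 over all tested entries. Without any 1 library its log2 fold change stayed between 0.52 and 0.58, but the edgeR adjusted p was then 0.0531 (without control replicate 3) to 0.085 (without adPERK replicate 2). Each such fit has fewer libraries.

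Egr2, a relative known for its role in myelinating Schwann cells and in hindbrain patterning, had counts of only 76, 147 and 84 in adPERK libraries and 63, 69 and 48 in control libraries. On the CPM scale these were 0.769, 1.23 and 0.939 in adPERK and 0.569, 0.835 and 0.616 in control libraries. The groups overlapped, because control replicate 2 lay above adPERK replicate 1. The log2 fold change was 0.54, close to that of Egr1, but with an SE of 0.31 and a 95% interval of -0.18 to 1.26 (edgeR adjusted p = 0.562). Counts of 48 to 147 correspond to 8 to 24.5 steps of 6, and those of Egr1 to 197 to 434 steps.

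Nr4a1, also called Nur77, an orphan receptor induced by growth factors and by cell death signals, was at 1.32, 1.38 and 2.08 CPM in adPERK libraries and at 1.21, 1.04 and 1.50 CPM in control libraries. Control replicate 3 was above 2 of the 3 adPERK libraries. The log2 fold change was 0.35 (SE 0.25, 95% interval -0.24 to 0.93, edgeR adjusted p = 0.667), and 0.11 without adPERK replicate 3, the library with the highest value.

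Nr4a3, also called NOR1, had the lowest counts of the 10, at 98, 66 and 42 in adPERK libraries and 48, 35 and 18 in control libraries. Its level was 0.992, 0.552 and 0.469 CPM in adPERK and 0.434, 0.424 and 0.231 CPM in control libraries. No adPERK library fell below a control library, though the lowest and the highest of these were only 1.08-fold apart. It had the largest log2 fold change of the 10, 0.88, and also the widest 95% interval, -0.26 to 2.02 (SE 0.50, edgeR adjusted p = 0.547). Leaving out adPERK replicate 1 gave 0.49 and leaving out control replicate 3 gave 0.65.

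**Figure D2:**
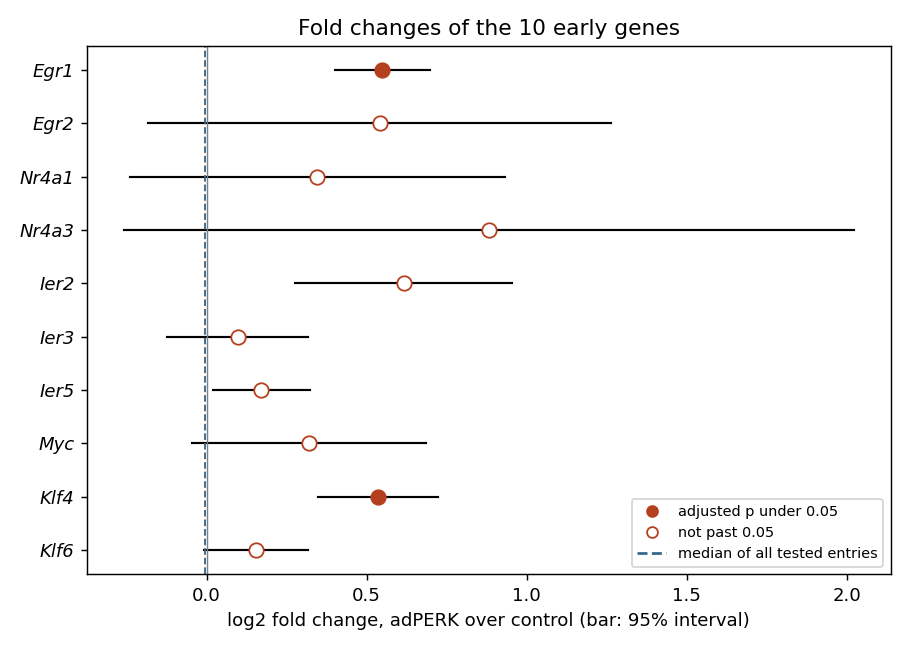
Log2 fold change of each gene (x axis, adPERK over control), with its 95% interval as a bar. Filled points (Egr1 and Klf4) passed an edgeR adjusted p of 0.05, and the dashed line is the median of all tested entries, -0.0045; the intervals of the low-count genes Egr2, Nr4a1 and Nr4a3 are the widest.

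Ier2, a short-lived nuclear protein with DNA-binding activity, was at 32.0, 34.1 and 28.3 CPM in adPERK libraries and at 25, 20.6 and 16.0 CPM in control libraries. The groups did not overlap, and the lowest adPERK library was 1.13-fold above control replicate 1. The log2 fold change was 0.62 (SE 0.15, 95% interval 0.28 to 0.95), larger than that of Egr1, but it did not pass over all entries (edgeR adjusted p = 0.169, unadjusted p = 0.00299). Its SD on the log2 scale was 0.14 among adPERK libraries and 0.32 among control libraries. Without control replicate 1 the log2 fold change was 0.78 and without control replicate 3 it was 0.47. DESeq2 did call Ier2, with adjusted p = 0.00117.

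Ier3, also called IEX-1, a regulator of apoptosis and of ERK signalling, was at 34.2, 32.0 and 29.4 CPM in adPERK libraries and at 34.2, 26.9 and 28.2 CPM in control libraries. Control replicate 1 lay just above adPERK replicate 1. Its log2 fold change was 0.10 (SE 0.10, 95% interval -0.12 to 0.32, edgeR adjusted p = 0.766), the smallest of the 10.

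Ier5, which acts on heat shock factor HSF1 through the phosphatase PP2A, had the highest counts of the 10. It was at 100.4, 105.9 and 94.6 CPM in adPERK libraries and at 95.5, 89.4 and 82.3 CPM in control libraries. Control replicate 1 lay just above adPERK replicate 3. Its log2 fold change was 0.17 (SE 0.07, 95% interval 0.02 to 0.32, edgeR adjusted p = 0.382).

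Myc was at 7.48, 6.99 and 6.33 CPM in adPERK libraries and at 6.60, 4.42 and 5.64 CPM in control libraries. Control replicate 1 lay above adPERK replicate 3, and control replicate 2 was the lowest of all. The difference was 0.32 on the log2 scale (SE 0.16, 95% interval -0.05 to 0.69, edgeR adjusted p = 0.497), and 0.18 without control replicate 2.

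Klf4, a factor of differentiation and one of the classical reprogramming factors, was at 16.9, 18.3 and 17.6 CPM in adPERK libraries and at 11.4, 13.1 and 11.9 CPM in control libraries. Every adPERK library was above every control library, and the lowest adPERK value was 1.29-fold the highest control value. The means were 17.6 ± 0.693 and 12.1 ± 0.853 CPM (SD, n = 3 each), and the log2 fold change was 0.54 (SE 0.08, 95% interval 0.35 to 0.72, edgeR adjusted p = 0.0434). Without any 1 library the log2 fold change stayed between 0.49 and 0.59, but the edgeR adjusted p was then 0.0918 (without control replicate 2) to 0.186 (without adPERK replicate 2).

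Klf6, a tumour suppressor of the same family, was at 29.9, 31.7 and 33.2 CPM in adPERK libraries and at 27.7, 31.1 and 26.3 CPM in control libraries. Control replicate 2 lay among the adPERK libraries. The difference was 0.16 on the log2 scale (SE 0.07, 95% interval -0.0070 to 0.32, edgeR adjusted p = 0.463).

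The authors' deposited table, made from the same counts, gave an adjusted p under 0.05 to 2 of the 10 genes, both higher. Of its 17483 entries with an adjusted p, 2.27% were under 0.05 in either direction and 0.715% were under 0.05 as higher. In the authors' deposited table the 2 genes were Klf4 (log2 fold change 0.54, adjusted p = 6.6e-06) and Ier2 (0.62, adjusted p = 0.0267). Egr1 had a log2 fold change of 0.55 in the authors' deposited table, with adjusted p = 0.135 and an SE of 0.20. Klf4 thus passed in both sources, Egr1 in edgeR alone and Ier2 in the authors' deposited table alone. DESeq2 run on these 6 libraries passed all 3, with 2.69% of its 9249 entries with an adjusted p passing as higher, and it gave no adjusted p to Egr2, Nr4a1, Nr4a3 and Myc.

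Within a library, the ratio of counts of a pair of family members does not depend on the scaling, and it was compared between the groups for 5 pairs chosen after the values were seen. With 3 libraries against 3 a two-sided exact permutation test cannot go below p = 0.1. The ratio of Ier2 to Ier3 was 0.938, 1.07 and 0.961 in adPERK libraries and 0.731, 0.765 and 0.566 in control libraries. The ratio of Ier2 to Ier5 was 0.319, 0.322 and 0.299 in adPERK and 0.262, 0.230 and 0.194 in control libraries, and that of Klf4 to Klf6 was 0.563, 0.575 and 0.530 in adPERK and 0.413, 0.420 and 0.451 in control libraries. For these 3 ratios the groups did not overlap (exact permutation p = 0.1 each, 0.167 after Benjamini-Hochberg adjustment over 5). Each of the 3 sets a gene with a larger log2 fold change over one with a smaller, so it restates those fold changes and is no separate evidence. The ratio of Egr1 to Egr2 was 26.8, 17.7 and 23.9 in adPERK and 25.8, 17.3 and 24.6 in control libraries, a log2 difference of 0.02 (exact permutation p = 0.9). The ratio of Nr4a3 to Nr4a1 was 0.754, 0.400 and 0.226 in adPERK and 0.358, 0.407 and 0.154 in control libraries, a log2 difference of 0.53 with overlapping groups (exact permutation p = 0.5). That difference was 0.09 without adPERK replicate 1 and 0.10 without control replicate 3.

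Within the groups the 10 genes did not move as 1 block. Among adPERK libraries, replicate 2 was the highest for 4 genes and the lowest for 0, while replicates 1 and 3 were each the lowest for 5. Among control libraries, replicate 1 was the highest for 5 genes, replicate 2 for 3 and replicate 3 for 2. On the log2 scale Nr4a3, Ier2, Ier3, Ier5 and Myc lay 0.29, 0.31, 0.21, 0.10 and 0.27 above their control mean in replicate 1. In the same library Egr1, Egr2, Nr4a1, Klf4 and Klf6 were at -0.01, -0.22, -0.03, -0.08 and -0.03 from theirs. Control replicate 3 was lowest of the control libraries for 4 genes, with Ier2 at -0.34 and Nr4a3 at -0.56 from their group mean. Over all 6 libraries the lowest value was in a control library for all 10 genes, and the highest was in control replicate 1 for Ier3 alone.

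**Figure D3:**
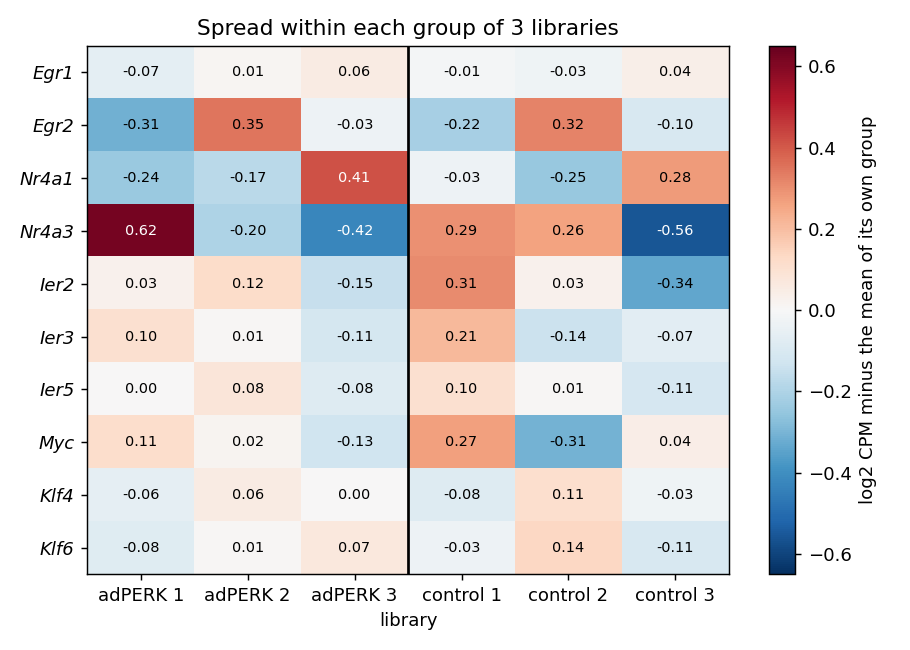
Deviation of each gene (rows) in each library (columns, adPERK left and control right) from the mean of its own group, in log2 CPM. Nr4a3, Ier2, Ier3, Ier5 and Myc are above their group mean in control replicate 1, while Egr1 deviates most in adPERK replicate 1, at -0.07.

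Averaged over the 10 genes as standardised log2 CPM, the 3 adPERK libraries were at 0.63, 0.80 and 0.56 and the 3 control libraries at -0.34, -0.67 and -0.97. The 5 entries of 9078 with the pattern most like this average over the 6 libraries were Mtpn, Arpc4, Aldh9a1, Hspa1b and Hspa1a, with Pearson r of 0.998, 0.998, 0.998, 0.997 and 0.995 (n = 6 libraries, which share their group difference). Hspa1b, an inducible HSP70 gene, was at 162.5, 164.8 and 149 CPM in adPERK libraries and at 105.1, 89.3 and 81.9 CPM in control libraries. Like Ier2 it was highest among the control libraries in replicate 1 and lowest in replicate 3. Hspa1a had a log2 fold change of 0.80 (SE 0.11, edgeR adjusted p = 0.0303) and Hspa1b one of 0.79 (SE 0.09, edgeR adjusted p = 0.0137), but they are near-identical copies whose counting could not be checked, and are uncertain as single genes. The first 3 did not pass: Mtpn (myotrophin) had a log2 fold change of 0.13, Arpc4, a subunit of the actin-nucleating ARP2/3 complex, 0.12, and Aldh9a1, an aldehyde dehydrogenase, 0.22.

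Other early genes outside the 10 had rises too. Of 48 further early response genes 46 were tested, 7 rose and 0 fell, while 0.311% of all tested entries rose and 0.11% fell. Of the 46, 34 lay above 0, and the log2 fold changes ran from -1.55 to 1.24 with a median of 0.20. In either direction, 20 of the 46 had an unadjusted p under 0.05, DESeq2 passed 13 and limma voom 8. This list too was chosen with earlier results of these data known. The 6 with the smallest p were Ppp1r15a, which encodes the eIF2 alpha phosphatase subunit GADD34, Btg2, an anti-proliferative gene, Hbegf, an EGF receptor ligand, the matrix protein genes Cyr61 and Ctgf, and Dusp1, a phosphatase of MAP kinases. Hbegf was at 36.6, 38.1 and 38.6 CPM in adPERK libraries and at 27.5, 27.3 and 25.6 CPM in control libraries (log2 fold change 0.50, SE 0.05, edgeR adjusted p = 0.00917). The 7 became 3, 4 and 2 without adPERK replicates 1, 2 and 3, and 6, 5 and 3 without control replicates 1, 2 and 3. All 9 AP-1 genes were tested and lay above 0 (median 0.33), and 1 rose, Fos, at 29.9, 29.8 and 31.1 CPM in adPERK libraries and 15.0, 11.8 and 12.1 CPM in control libraries. Of the 9, 5 had an unadjusted p under 0.05, DESeq2 passed 2 and limma voom 1. The 2 that DESeq2 passed were Fos and Junb (log2 fold change 0.36, DESeq2 adjusted p = 0.00413). Fosb (1.09, edgeR adjusted p = 0.0828) and Atf3 (0.85, edgeR adjusted p = 0.0737) did not pass in edgeR.

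Relatives of the 10 genes in the same families lay on both sides of 0. Of 18 further EGR, NR4A, IER, MYC and KLF genes 15 were tested, and 0 passed in edgeR (5 had an unadjusted p under 0.05, DESeq2 passed 1 and limma voom 0). Their median log2 fold change was 0.02, with 8 above 0. The highest in CPM were Klf3, a repressor, at 36.2, 34.3 and 37.8 CPM in adPERK and 40.3, 45.0 and 42.1 CPM in control libraries (log2 fold change -0.23, edgeR adjusted p = 0.169), and Mycn, the neuronal relative of Myc (-0.19, edgeR adjusted p = 0.399). Klf3 was the relative that DESeq2 passed, as lower (DESeq2 adjusted p = 0.0444). Nr4a2, the remaining NR4A receptor, was at 2.24, 1.51 and 1.75 CPM in adPERK and 1.78, 2.31 and 2.77 CPM in control libraries, with a log2 fold change of -0.32 that did not pass (edgeR adjusted p = 0.656). Nr4a2 was named after its values were seen, to complete the family. Egr3, Egr4 and Klf8 were too low to test.

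Upstream, 28 of 29 genes of the ERK, SRF and CREB inputs were tested, with a median of 0.04. In edgeR 0 passed, and 3 had an unadjusted p under 0.05 in either direction (DESeq2 passed 2 and limma voom 0). The highest in CPM, Map2k2, a kinase of the ERK cascade, had a log2 fold change of 0.06. Of 14 partners and brakes 12 were tested and 0 passed in edgeR (2 had an unadjusted p under 0.05, DESeq2 passed 1 and limma voom 0), with a median of 0.0084. Nab2 and Nab1, which encode corepressors that bind EGR proteins, had log2 fold changes of 0.04 and 0.11.

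Downstream, all 15 EGR1 targets were tested and 0 passed in edgeR (5 had an unadjusted p under 0.05, DESeq2 passed 2 and limma voom 1), with a median of 0.11 and 13 above 0. The highest in CPM were Cd44, the hyaluronan receptor, at 517.6, 483.7 and 483.4 CPM in adPERK and 420.3, 439.3 and 438.7 CPM in control libraries (log2 fold change 0.19, edgeR adjusted p = 0.0926), and Mmp14, a membrane-bound matrix protease (0.07). The 2 that DESeq2 passed were Cd44 (DESeq2 adjusted p = 2.06e-05) and Plaur, both higher. All 20 MYC targets were tested and 0 passed in edgeR (7 had an unadjusted p under 0.05, DESeq2 passed 2 and limma voom 1), with a median of 0.08 and 15 above 0. Eif4a1, an RNA helicase of translation initiation, had a log2 fold change of 0.15 (edgeR adjusted p = 0.0603) and Ldha, lactate dehydrogenase, one of 0.07. The 2 that DESeq2 passed were Eif4a1 (DESeq2 adjusted p = 1.45e-07) and Ncl, both higher. Some genes stand in more than 1 list, such as Nab1, Nab2 and Srf, and count in each. The counts of unadjusted p under 0.05 in these lists, the upstream lists and the relatives take either direction. The 5.94% above, for higher entries alone, is not their background. Of the 14488 tested entries, Pdgfa, an EGR1 target, ranked 1509th by p (edgeR unadjusted p = 0.0442) and Ldha 1679th (edgeR unadjusted p = 0.0525). At least 1509 and fewer than 1679 entries thus had an unadjusted p under 0.05. Whether a list exceeded this share was not tested.

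**Figure D4:**
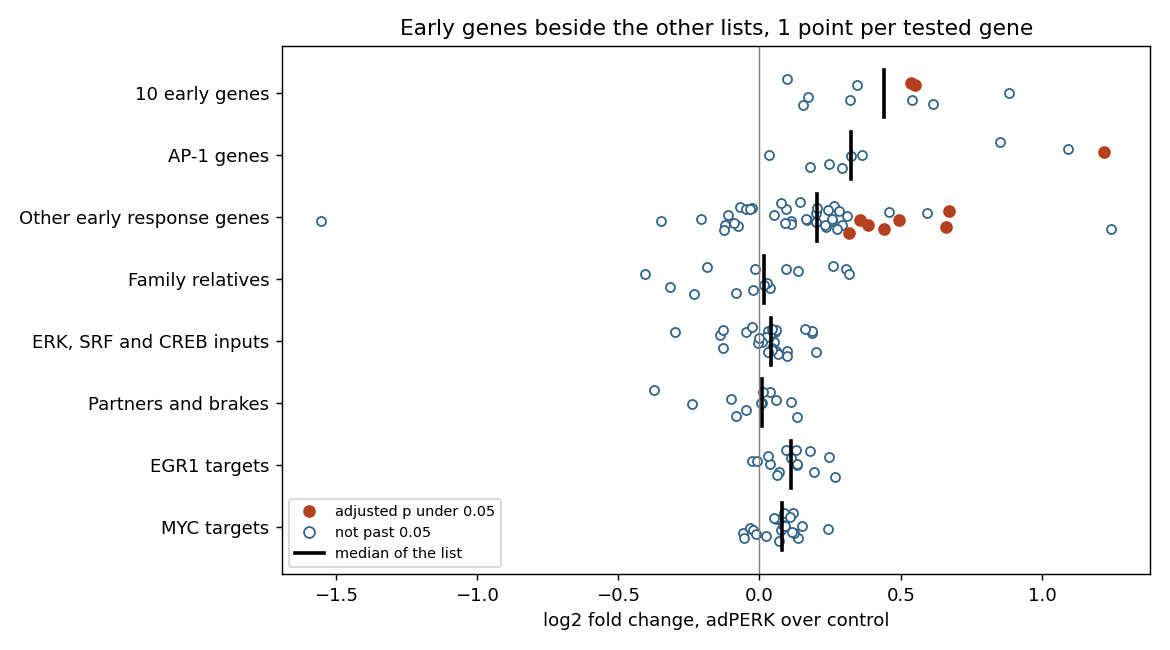
Log2 fold change (x axis, adPERK over control) of each tested gene in the 10 early genes and in 7 other lists (rows). Filled points passed an edgeR adjusted p of 0.05 and black bars are medians: 0.44 for the 10 early genes, 0.33 for AP-1 genes, 0.20 for other early response genes and 0.0084 to 0.11 for the remaining lists.

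The fold changes with 1 library left out show how far each value depends on 1 library. Egr1 and Klf4 moved least, from 0.52 to 0.58 and from 0.49 to 0.59. Ier2 ranged from 0.47 to 0.78, Egr2 from 0.34 to 0.72, Myc from 0.18 to 0.46 and Nr4a1 from 0.11 to 0.50. Nr4a3 ranged from 0.49 to 1.08, Ier3 from 0.03 to 0.21, Ier5 from 0.12 to 0.22 and Klf6 from 0.10 to 0.22. All 10 stayed above 0 in each of these 6 fits. Without control replicate 3, the library that stood apart, Egr1 was at 0.57 (edgeR adjusted p = 0.0531) and Klf4 at 0.52 (edgeR adjusted p = 0.146). In the same fit Egr2, Nr4a1, Nr4a3, Ier2, Ier3, Ier5, Myc and Klf6 were at 0.48, 0.50, 0.65, 0.47, 0.06, 0.12, 0.33 and 0.10. It called 23 entries in all and 0 of the 10 genes, with 1 of the 9 AP-1 genes. Without this library the log2 difference was 0.40 for the ratio of Ier2 to Ier3, 0.35 for Ier2 to Ier5, 0.42 for Klf4 to Klf6 and 0.09 for Egr1 to Egr2.

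**Figure D5:**
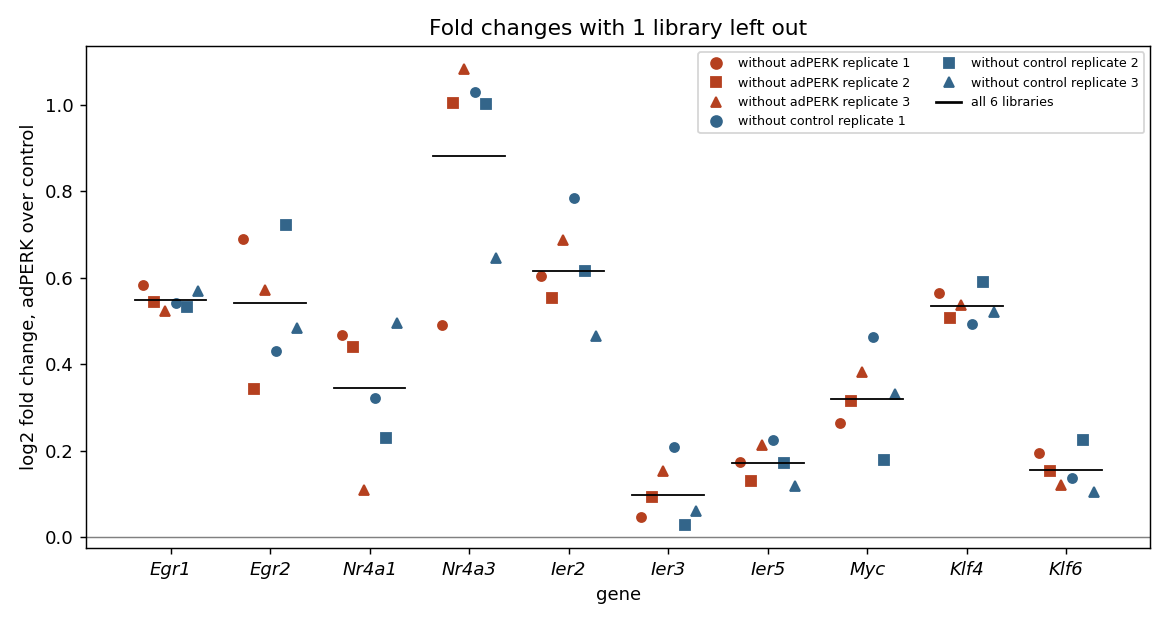
Log2 fold change of each gene (adPERK over control) with 1 library left out. Points are coloured by the group of the library left out and shaped by its replicate number, and black lines give the value with all 6 libraries; all points lie above 0, and those of Nr4a3, Nr4a1 and Egr2 spread widest.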

How the data were processed

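RNA sequencing counts of 6 libraries (3 adPERK, 3 control) were used. The deposited table gives whole-number counts per gene, used as deposited. The authors' normalized signal equals the counts divided by 1 size factor per library, as checked on the file, and was not tested. The deposited log2 fold changes and p-values are the authors' own. Bowtie 0.12.2 and the mouse build mm9 appear in the submitters' processing notes while the entries carry rat names, and the counting step and its build were not given in the sources used here. Another table has 6 columns whose names match no label, and was not used.

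Counts were TMM-scaled, filtered (filterByExpr, minimum count 10) and tested with edgeR 4.0.16 in R 4.3.3 (glmQLFit, glmQLFTest, group as the only term), with Benjamini-Hochberg adjustment over all 14488 tested entries at 0.05. Standard errors come from the fold change and F statistic. The fit was tested on simulated data. Levels are CPM of the TMM-scaled totals, log2 CPM has a prior count of 2, and gene lengths were not used, so an order of genes by CPM is not an order of level per length. Alternatives were DESeq2 1.42.0, limma 3.58.1 voom, DESeq2 size factors, 2 other filters, robust estimation, a replicate block, counts divided by 6 and leaving out each library. The 10 genes and all lists were chosen with earlier results of these data known. Genes named from a list were up to 6 that passed, or its 2 highest in CPM, of which 1 is not reported here; likeness used entries of at least 5 CPM with an ordinary symbol.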

Additional observations from a re-analysis of the deposited data

How the results depend on the processing

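The 10 genes kept a fold change above 0 under every alternative that tested them. Egr1 and Klf4 passed with each alternative that kept all 6 libraries and no block. DESeq2 added Ier2. Leaving out 1 library gave 0 called members each time in edgeR, with 3 to 6 at an unadjusted p under 0.05; such fits have fewer libraries and the cause was not tested. Same-numbered libraries did not deviate together (r = -0.31, -0.04 and 0.04 for numbers 1, 2 and 3), so the numbers are not taken as pairs. The fit with a replicate block called 9 entries and 0 of the 10 genes (4 at an unadjusted p under 0.05).

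The 61 changed entries became 94 without the low-count filter, 372 with DESeq2, 110 with limma voom, 132 with the robust fit, 93 with counts divided by 6, and 12 to 38 with 1 library left out. The difference in the Egr1 to Egr2 ratio ranged from -0.164 to 0.187 with 1 library left out, and was -0.112 without adPERK replicate 1, -0.0294 without adPERK replicate 3 and -0.164 without control replicate 2. Nr4a3 was too low to be tested with the stricter filter or with counts divided by 6. Steps of about 6 counts limit Egr2, Nr4a1 and Nr4a3 most.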
